A study of Mus musculus with 6 samples.

Results

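Heart cells read the size and timing of each calcium transient through calmodulin, which switches on a kinase, CaMKII, and a phosphatase, calcineurin. CaMKII phosphorylates calcium-handling proteins and class IIa histone deacetylases, and calcineurin dephosphorylates NFAT transcription factors so that they enter the nucleus. In mouse heart both routes are known from pathological hypertrophy. The genes described here are 10 of the 29385 genes in the tables, listed by name: the CaMKII subunits Camk2b and Camk2d, the calcineurin catalytic subunits Ppp3ca and Ppp3cb, the calcineurin regulators Rcan1 and Rcan2, and the NFAT factors Nfatc1, Nfatc2, Nfatc3 and Nfatc4. All 10 were found by symbol and all 10 passed the filter on low genes.

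Poly(A) RNA was sequenced from 6 mouse heart samples, 12 months after newborns received vehicle or vector. Every sample carried altered alleles of Myh6, the gene of the alpha myosin heavy chain, named RH and RQ in the labels with no further detail. There were 3 groups of 2 libraries each. Vehicle was given to Myh6 RH/+ mice and to Myh6 RH/RQ mice, and further RH/RQ mice received AAV-hpCas13d, named for an adeno-associated virus and the RNA-cutting enzyme Cas13d. The labels give neither the promoter nor the guide of the vector. No group here has 2 wild-type Myh6 alleles, and none received a vector other than AAV-hpCas13d. The labels give no sex, and they do not say whether the libraries of a group came from separate animals; the sample names within a group end in the same digits. The p-values therefore measure only the spread between these libraries, which may be technical.

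Library totals were 36269261 to 51017058 reads, and 3 reads, the limit that a count of 0 allows, equalled 0.0588 to 0.0827 CPM (counts of a gene scaled to the library total). The fewest reads behind any value of the 10 genes were 271, for Nfatc4. The defining heart muscle markers were present, with a summed level of 54412 to 65082 CPM for 8 genes. Xist, the female X inactivation transcript, was at 265 to 326 CPM in the RH/+ and treated libraries and near 0 (0.274 and 0.0516 CPM) with RH/RQ and vehicle. The Y-linked gene Ddx3y was at 85.2 CPM in each of the RH/RQ vehicle hearts and had 0 reads in the other 4. Genotype or treatment and this sex-linked pattern cannot be told apart in either comparison with the RH/RQ vehicle group; between treated RH/RQ and RH/+ hearts the pattern did not separate the groups. In whole tissue, fewer cells of a type and less RNA per cell cannot be told apart either.

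Rcan1 was the gene of the 10 that passed the limma test in all 3 comparisons, the last of which depended on the scaling, and it is shown first. It encodes regulator of calcineurin 1, which binds calcineurin and inhibits it when abundant, and lies on chromosome 16 at 92391953 to 92470867 on the minus strand (GRCm38, GENCODE M21). The gene has alternative starts, and the transcript from the inner start is known as a target that calcineurin-NFAT signalling raises. RefSeq (GRCm38.p6) lists 2 starts, 66.1 kb apart. The outer start lies next to the starts of the GENCODE transcripts Rcan1-202 and Rcan1-206, and the inner start next to that of Rcan1-201. The 250 bases before each start are printed because the deposited values are per gene and do not say which start was used. The outer window is chr16:92466170-92466419 and the inner one chr16:92400079-92400328, both given 5′ to 3′ on the minus strand, with capitals on each match of GGAAA, the core that NFAT factors recognise, or of its complement TTTCC.

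Rcan1 outer start: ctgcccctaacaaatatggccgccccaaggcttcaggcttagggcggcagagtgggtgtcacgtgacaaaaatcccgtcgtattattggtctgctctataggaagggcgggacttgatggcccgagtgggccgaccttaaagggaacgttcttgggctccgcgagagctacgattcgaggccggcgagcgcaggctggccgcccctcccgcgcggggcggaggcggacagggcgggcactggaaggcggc

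Rcan1 inner start: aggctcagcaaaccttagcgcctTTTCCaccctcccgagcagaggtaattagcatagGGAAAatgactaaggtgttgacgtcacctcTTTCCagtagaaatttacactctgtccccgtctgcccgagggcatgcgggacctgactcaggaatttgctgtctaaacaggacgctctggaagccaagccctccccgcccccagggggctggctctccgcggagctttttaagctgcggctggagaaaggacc

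The outer window held 0 matches of the NFAT core on either strand, and the inner window 3, which begin at positions -227, -193 and -163 counted from the start. At least 1 match was present in 55.6% of the 32841 windows of this length and at least 3 matches in 6.39%. The inner window also held 1 match of TGANTCA, the element of the AP-1 factors that can bind beside NFAT, at position -110; 6.75% of the windows held at least 1, and it overlaps no NFAT core match. These are matches of letters and not measured binding. Of the 10 genes 8 had promoter windows. Camk2b, the other gene that passed a test, had 0 NFAT core matches in its window, while Ppp3cb had 3, Nfatc4 had 3 and Camk2d had 1. Nfatc2 had 3 in the window of its outer start and 1 in that of its inner start, and Nfatc3 had 1 and 0. Rcan2, the paralogue of Rcan1, had 2 in the window next to Rcan2-204 and 0 next to Rcan2-206 and Rcan2-203. The window next to Rcan2-203 held 1 AP-1 match.

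The Rcan1 level in RH/+ vehicle hearts was 97.4 CPM in one library and 99.5 CPM in the other. RH/RQ vehicle hearts gave 165 and 183 CPM. Treated RH/RQ hearts gave 124 and 129 CPM. The groups did not overlap, with RH/RQ vehicle highest, treated RH/RQ in between and RH/+ lowest. In RH/RQ vehicle hearts Rcan1 rose against RH/+ by 0.81 on the log2 scale (SE 0.09, with a limma adjusted p of 3.52e-06), from 98.5 ± 1.48 to 174 ± 13.2 CPM (SD, n = 2 each). The adjusted p stayed under 0.05 in all 17 alternative settings, between 9.45e-11 and 0.0305. In treated hearts Rcan1 fell against RH/RQ vehicle by 0.45 on the log2 scale (SE 0.09; limma adjusted p = 0.00712), to 126.5 ± 3.66 CPM (SD, n = 2). Leaving out RH/RQ vehicle replicate 2 ended this call (log2 fold change -0.38; limma adjusted p = 0.226), as did testing with no filter on low genes (limma adjusted p = 0.187), and the other 15 of 17 settings kept it.

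**Figure D1:**
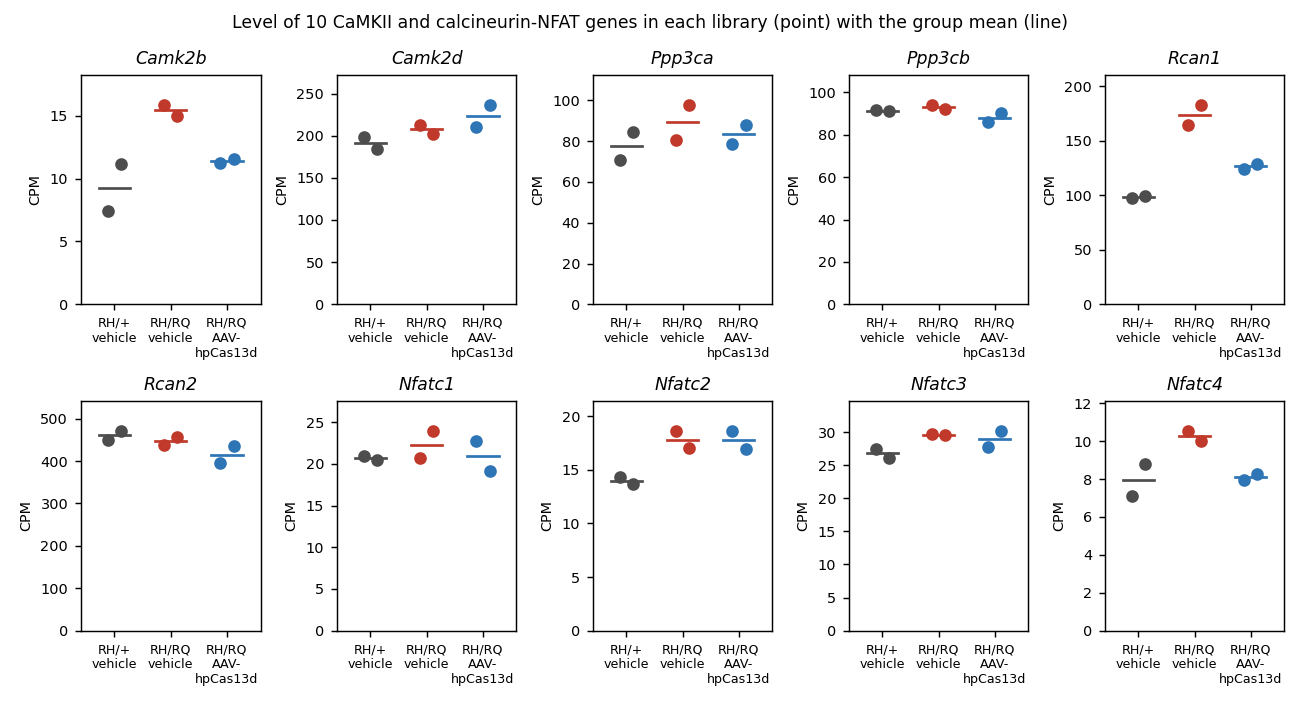
Level of each of the 10 genes in CPM (vertical axis, from 0) in the 3 groups, 1 point per library and a line at the group mean. Rcan1 stands at 97.4 and 99.5 CPM in RH/+ hearts, 165 and 183 CPM in RH/RQ vehicle and 124 and 129 CPM in treated hearts.

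Between treated RH/RQ and RH/+ hearts, Rcan1 was still higher in the treated group, by 0.36 on the log2 scale (SE 0.09, with a limma adjusted p of 0.0328). That call depended on the scaling and the test. The log2 fold change was 0.26 with edgeR (adjusted p = 0.283), 0.25 with DESeq2 (adjusted p = 0.26), 0.25 in limma with RLE factors (adjusted p = 0.252) and 0.25 with TMM factors (adjusted p = 0.238). It was 0.33 on CPM over nuclear genes (limma adjusted p = 0.0574), and it lost the call without any 1 of the 4 libraries compared (limma adjusted p = 0.0527 to 0.323). Both treated libraries lay above both RH/+ libraries in CPM, as they did for 35.0% of all genes tested. The authors' deposited table gives a log2 fold change of 0.25 with an adjusted p of 0.275 for this comparison, and 0.77 (adjusted p = 2.69e-12) and -0.52 (adjusted p = 0.00113) for the comparisons of RH/RQ vehicle with RH/+ and of treated with vehicle RH/RQ.

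The summed level of 8 macrophage markers was 186 to 190 CPM in RH/+ hearts, 249 to 258 CPM in RH/RQ vehicle and 205 to 234 CPM in treated hearts. Of these 8 macrophage markers 4 rose between RH/+ and RH/RQ vehicle hearts, and 0 passed in either comparison with the treated group. The summed level of 8 fibroblast markers was 2186 to 2607 CPM in RH/+ hearts, 3108 to 3257 CPM in RH/RQ vehicle and 3234 to 3783 CPM in treated hearts. Of these 8 fibroblast markers 5 rose between RH/+ and RH/RQ vehicle hearts, 3 fell in treated against vehicle RH/RQ hearts and 5 rose in treated RH/RQ against RH/+ hearts. In the same order of comparisons, 3.48%, 1.22% and 2.33% of all genes tested were called as higher, and 1.51%, 0.827% and 0.53% as lower. The summed heart muscle markers were lowest in RH/RQ vehicle hearts, at 54412 to 57672 CPM. They were at 58242 to 58557 CPM in treated hearts and 60714 to 65082 CPM in RH/+. Endothelial sums were 942 to 988 CPM in RH/+, 1036 to 1115.5 CPM in RH/RQ vehicle and 933 to 1032 CPM when treated. Mural (vessel wall) sums were 1368 to 1382.5 CPM, 1117 to 1156 CPM and 1136 to 1273 CPM in the same order. Between RH/+ and RH/RQ vehicle hearts 2 of the 8 mural markers fell, Abcc9 and Acta2. The median log2 fold change of the 8 was 0.05, with 5 above 0. In treated hearts 1 mural marker rose against RH/RQ vehicle and 1 fell against RH/+. Of the 8 endothelial markers 1 fell in treated against vehicle RH/RQ hearts. Of the 8 heart muscle markers 0 passed in any comparison. The part of these cells in the Rcan1 values was not tested.

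The genes whose profile over the 6 libraries was closest to that of Rcan1 were Tlr4, Piezo2 and Cdh4. Closeness was the root mean square difference of log2(CPM + 1) after each gene was centred on its own mean, over the 12336 genes searched, whose means reached 1 CPM. It was 0.06 for Tlr4, a receptor for bacterial lipopolysaccharide, which stood at 12.1 CPM in both RH/+ libraries, 19.3 and 21.5 CPM in RH/RQ vehicle and 15.2 and 16.6 CPM in treated hearts. It was 0.07 for Piezo2, a mechanosensitive ion channel, and 0.07 for Cdh4, a cadherin. With 6 libraries in 3 groups such closeness describes the group pattern only.

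Rcan2, the paralogue of Rcan1, passed in none of the comparisons. RH/+ hearts had 450 and 471 CPM of it, against 438 and 458 CPM in RH/RQ vehicle and 396 and 435 CPM in treated hearts. The log2 fold change was -0.04 for RH/RQ vehicle against RH/+ (95% interval -0.24 to 0.16), -0.11 for treated against vehicle RH/RQ (95% interval -0.31 to 0.09) and -0.15 for treated RH/RQ against RH/+ (95% interval -0.35 to 0.05). Within each library the ratio of Rcan1 to Rcan2 CPM was 0.214 ± 0.0038 in RH/+, 0.388 ± 0.0176 in RH/RQ vehicle and 0.305 ± 0.0113 in treated hearts (SD, n = 2 each). These ratios are given as a description with no test; an exact permutation test of 2 against 2 libraries cannot go below p = 0.33. Per kb of exon, which allows levels of different genes to be set side by side, Rcan2 was the more abundant, at 90.6 to 108 CPM per kb against 31.6 to 59.4 CPM per kb for Rcan1. Rcan1 made up 22.8% of the summed level per kb of Rcan1, Rcan2 and Rcan3 in RH/+, 34.7% in RH/RQ vehicle and 29.4% in treated hearts. With the median length of protein-coding transcripts in place of all exons, these shares were 8.46%, 14.3% and 11.5%, and the order of the groups was the same.

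Camk2b was the other gene that rose in RH/RQ vehicle hearts. It encodes the beta subunit of CaMKII, best known from brain and skeletal muscle, and lies on chromosome 11 at 5969644 to 6066362 on the minus strand (GRCm38). RH/+ hearts had 7.40 and 11.2 CPM of it, against 15.9 and 15.0 CPM in RH/RQ vehicle and 11.3 and 11.6 CPM in treated hearts, from 282 to 811 reads per library. The RH/RQ vehicle libraries were the highest, and RH/+ replicate 1 stood well below RH/+ replicate 2, which was close to the treated libraries. Against RH/+ the log2 fold change in RH/RQ vehicle hearts was 0.70 (SE 0.16; limma adjusted p = 0.00945), with 1.66 as the ratio of the group means. Without RH/+ replicate 1 it was 0.43 and lost its call (limma adjusted p = 0.353). Leaving out RH/RQ vehicle replicate 1 also ended the call (log2 fold change 0.66; limma adjusted p = 0.0781), as did testing with no filter on low genes (limma adjusted p = 0.233), and 14 of 17 settings kept it. The authors' deposited table gives 0.68 with an adjusted p of 0.0119.

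In treated hearts Camk2b had a log2 fold change of -0.40 against RH/RQ vehicle (SE 0.16; 95% interval -0.73 to -0.07), which missed the threshold over all genes (limma adjusted p = 0.27). Against RH/+ its log2 fold change in treated hearts was 0.30 (95% interval -0.03 to 0.63; limma adjusted p = 0.395). That value was 0.03 without RH/+ replicate 1 and 0.56 without RH/+ replicate 2, uncalled in both cases. The sex-linked pattern and the macrophage, endothelial and heart muscle sums given above separated RH/RQ vehicle hearts from both other groups. The fibroblast sums separated them from RH/+ hearts but overlapped those of treated hearts. Within that list Col1a1, Col1a2 and Col3a1, named after their values were seen, were higher in both RH/RQ vehicle libraries than in any other library. The rest of the list did not share this pattern. Pdgfra, Dcn, Lum and Gsn had higher means in treated than in RH/RQ vehicle hearts (74.2 against 67.2, 875 against 816, 185 against 180 and 2100 against 1577 CPM). Tcf21 had its lowest mean, 10.5 CPM, in RH/RQ vehicle hearts. The part of these patterns in the Camk2b values was not tested. Neuron and glia markers, relevant to a gene known from brain, summed to 14.1 and 14.7 CPM in RH/+ hearts, 13.9 and 11.5 CPM in RH/RQ vehicle and 15.96 and 11.2 CPM in treated hearts. The genes with the closest profiles were Elmo1, with a root mean square difference of 0.05, and Vit and Atp10a, each with 0.08. Elmo1, an adaptor of phagocytosis and Rac signalling, stood at 7.32 and 10.5 CPM in RH/+ hearts, 16 and 14.7 CPM in RH/RQ vehicle and 12.0 and 10.9 CPM in treated hearts.

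Camk2d, the delta subunit, known as the main CaMKII of heart muscle cells, passed in none of the comparisons either. RH/+ hearts had 198 and 185 CPM of it, against 213 and 202 CPM in RH/RQ vehicle and 211 and 237 CPM in treated hearts. The log2 fold change was 0.12 for RH/RQ vehicle against RH/+ (95% interval -0.08 to 0.31), 0.11 for treated against vehicle RH/RQ (95% interval -0.09 to 0.30) and 0.22 for treated RH/RQ against RH/+ (95% interval 0.03 to 0.42; limma adjusted p = 0.244). Camk2b was the lowest of the 4 CaMKII genes per kb of exon, at 0.811 to 1.74 CPM per kb, against 8.21 to 10.5 CPM per kb for Camk2d, 9.70 to 11 CPM per kb for Camk2g and 6.52 to 7.19 CPM per kb for Camk2a, whose locus in muscle also gives the kinase-free anchoring protein alphaKAP. The Camk2b share of the family was 3.84% ± 1.04 in RH/+, 6.03% ± 0.0311 in RH/RQ vehicle and 4.29% in both treated libraries (SD, n = 2 each). Camk2d has 28 annotated transcripts and 22493 bases of exon, so its level per kb depends strongly on which exons are counted. With the median transcript length, Camk2b was again the lowest. Camk2g was then the highest, at 75.6 to 85.6 CPM per kb against 45.3 to 58.2 CPM per kb for Camk2d. Gene totals do not separate the splice forms of Camk2d, of which the nuclear and cytosolic ones are known to act differently.

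**Figure D2:**
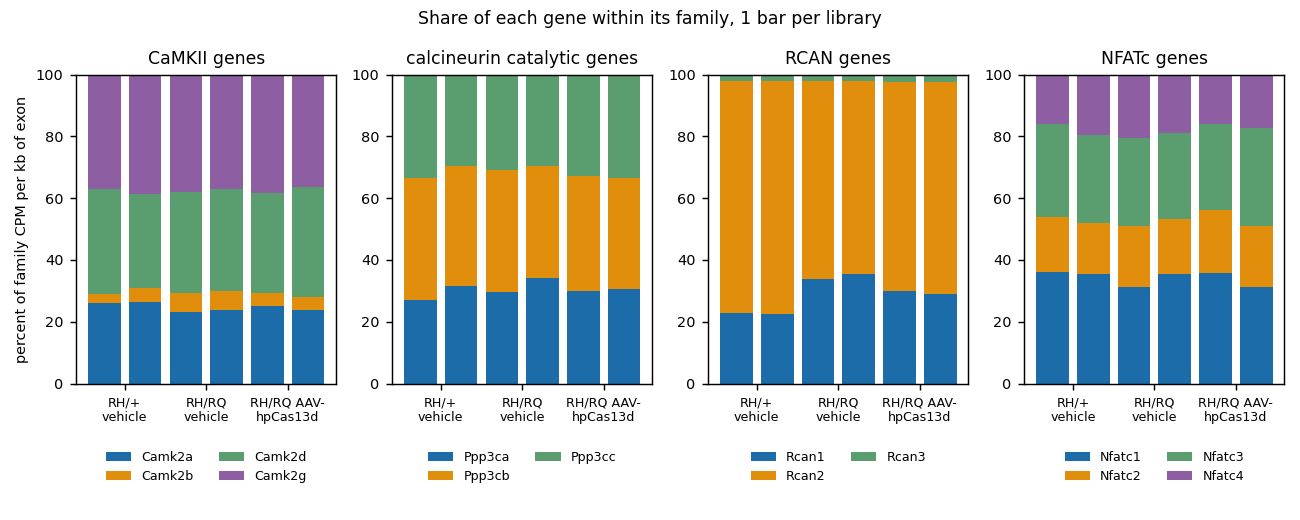
Share of each gene in the summed level per kb of exon of its family (vertical axis, percent), 1 bar per library, 2 bars per group. The Rcan1 segment grows from 22.8% of the RCAN genes in RH/+ to 34.7% in RH/RQ vehicle and is 29.4% in treated hearts.

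The calcineurin catalytic subunits passed in none of the comparisons. Ppp3ca, the alpha subunit, was at 70.8 and 84.5 CPM in RH/+ hearts, 80.5 and 98.0 CPM in RH/RQ vehicle and 78.8 and 87.9 CPM in treated hearts, and all 3 groups overlapped. Ppp3cb, the beta subunit, which the hypertrophic response needs in knockout mice, was at 91.5 and 91.2 CPM in RH/+ hearts, 94.3 and 92.1 CPM in RH/RQ vehicle and 86.1 and 90.1 CPM in treated hearts. For RH/RQ vehicle against RH/+ the log2 fold change was 0.20 for Ppp3ca (95% interval -0.03 to 0.43) and 0.03 for Ppp3cb (95% interval -0.16 to 0.22), where that of Ppp3cb was below 0 with edgeR, DESeq2, TMM and RLE factors. For treated against vehicle RH/RQ it was -0.09 for Ppp3ca (95% interval -0.32 to 0.13) and -0.08 for Ppp3cb (95% interval -0.27 to 0.11). On CPM scaled to the library total, the Ppp3cb intervals over the 3 comparisons reached at most 0.27 on the log2 scale in either direction. They rest on the spread between these libraries, which may be technical, and they shift with the scaling. With RLE factors the log2 fold change of Ppp3cb was -0.16 (SE 0.09) in treated RH/RQ against RH/+ hearts. It was -0.14 (SE 0.09) in treated against vehicle RH/RQ hearts. Per kb of exon the 2 genes were at 7.09 to 9.82 CPM per kb (Ppp3ca) and 9.77 to 10.7 CPM per kb (Ppp3cb), and Ppp3cc, the third catalytic gene, at 7.94 to 9.59 CPM per kb.

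None of the 4 NFAT genes passed the test over all genes in any comparison. Nfatc2, best known from T cells and also present in heart, was at 14.3 and 13.7 CPM in RH/+ hearts, 18.6 and 17.0 CPM in RH/RQ vehicle and 18.6 and 17.0 CPM in treated hearts. Both RH/RQ groups lay above RH/+ and overlapped each other. The log2 fold change against RH/+ was 0.33 in RH/RQ vehicle hearts (SE 0.13; 95% interval 0.06 to 0.59; limma adjusted p = 0.172) and 0.33 in treated hearts (95% interval 0.06 to 0.59; limma adjusted p = 0.209). Those comparisons share the RH/+ libraries. T and B cell markers summed to 6.08 to 9.98 CPM over the 6 libraries, and the sums did not separate these groups. RH/+ was at 9.98 and 6.09 CPM, RH/RQ vehicle at 6.51 and 6.08 CPM and treated RH/RQ at 9.48 and 6.59 CPM. Of the 8 markers Cd8a passed as lower in treated RH/RQ against RH/+ hearts, with means of 0.554 and 1.65 CPM, and the other 7 did not pass. In RH/RQ vehicle against RH/+ hearts 0 passed.

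Nfatc4, a factor expressed in heart muscle, was at 7.11 and 8.79 CPM in RH/+ hearts, 10.5 and 10.03 CPM in RH/RQ vehicle and 7.97 and 8.25 CPM in treated hearts. The RH/RQ vehicle libraries were above the other 4, which overlapped. Its log2 fold change was 0.34 for RH/RQ vehicle against RH/+ (95% interval 0.02 to 0.66; limma adjusted p = 0.254) and -0.31 for treated against vehicle RH/RQ (95% interval -0.63 to 0.01; limma adjusted p = 0.428). Nfatc4 lies on chromosome 14 at 55823144 to 55833943, 0.856 Mb from Myh6, the gene whose alleles define the groups. Whether linked sequence near Myh6 differs between the groups was not tested.

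Nfatc1, known from the endocardium and heart valves, was at 20.9 and 20.5 CPM in RH/+ hearts, 20.7 and 24.0 CPM in RH/RQ vehicle and 22.8 and 19.1 CPM in treated hearts, and the groups overlapped. Nfatc3, needed in mice for the full hypertrophic response to calcineurin, was at 27.5 and 26.1 CPM in RH/+ hearts, 29.6 CPM in each of the RH/RQ vehicle hearts and 27.7 and 30.2 CPM in treated hearts. The largest log2 fold change of these genes in any comparison was 0.14 for Nfatc3 in RH/RQ vehicle against RH/+ hearts (95% interval -0.09 to 0.37). Exons of Nfatc3 share 219 bases with Esrp2 on the opposite strand, a gene at 0.284 to 0.666 CPM here. Per kb of exon Nfatc1 (2.56 to 3.21 CPM per kb) was above Nfatc3 (2.23 to 2.57 CPM per kb) in each library but treated replicate 2, where Nfatc3 was marginally higher, and Nfatc4 (1.22 to 1.82 CPM per kb) overlapped Nfatc2 (1.29 to 1.76 CPM per kb) at the bottom. With the median transcript length Nfatc3 had the highest range, so this order depends on the length used.

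**Figure D3:**
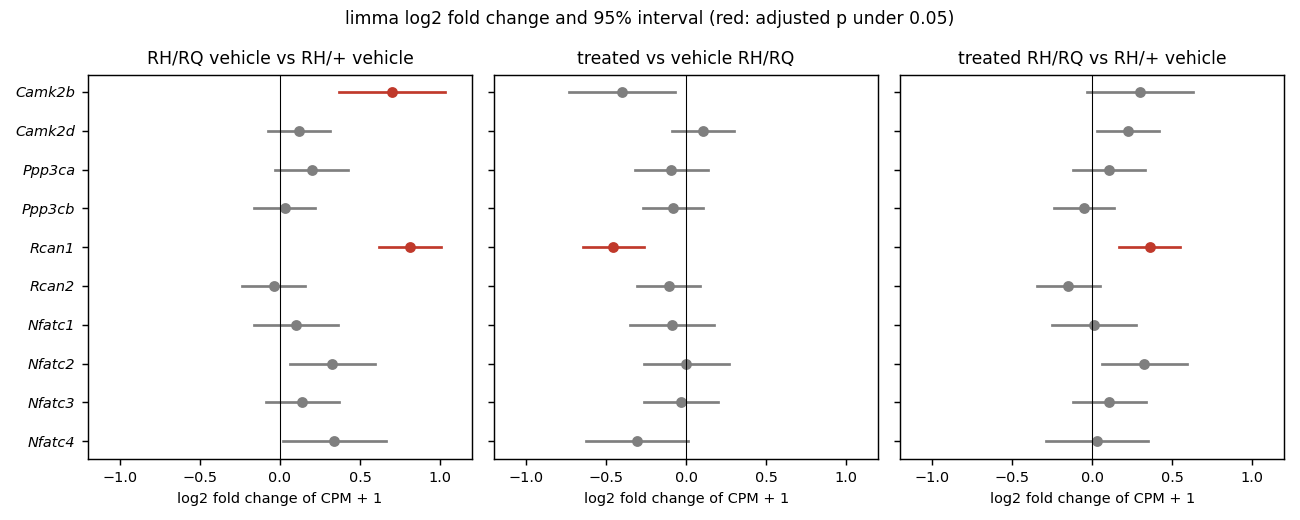
limma log2 fold change of CPM + 1 (horizontal axis) with its 95% interval for the 10 genes in the 3 comparisons, with genes at an adjusted p under 0.05 in red. Rcan1 is red in each panel, at 0.81, -0.45 and 0.36, the last being lost with edgeR, DESeq2, TMM and RLE factors; Camk2b is red for RH/RQ vehicle against RH/+ only, at 0.70.

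Counted over the 10 genes, 2 rose and 0 fell between RH/+ and RH/RQ vehicle hearts, where 4.99% of the 16804 genes tested were called, 3.48% as higher and 1.51% as lower. In treated against vehicle RH/RQ hearts 1 fell and 0 rose, with 2.05% of all genes called, 1.22% as higher and 0.827% as lower. Treated RH/RQ hearts against RH/+ had 1 that rose and 0 that fell, with 2.86% of all genes called, 2.33% as higher and 0.53% as lower. The median log2 fold change of the 10 genes was 0.17, -0.09 and 0.11 in these comparisons, against 0.04, 0.04 and 0.08 over all genes tested. The libraries of RH/+ and RH/RQ vehicle hearts did not overlap for 7 of the 10 genes, all higher in RH/RQ, against 49.3% of all genes (30.8% higher, 18.5% lower). Those of vehicle and treated RH/RQ hearts did not overlap for 5 genes, all lower when treated, against 40.5% of all genes (26.2% higher, 14.4% lower). Treated RH/RQ and RH/+ libraries did not overlap for 5 genes that were higher and 2 that were lower when treated, against 44.7% of all genes (35.0% higher, 9.66% lower). At an unadjusted limma p under 0.05, 4, 2 and 3 of the 10 genes passed, against 17.1%, 12.5% and 15.1% of all genes tested.

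The other genes of the pathway were described through a list of 59 by role, of which 54 passed the filter on low genes. Between RH/+ and RH/RQ vehicle hearts 3 of the 54 rose and 0 fell, beside 3.48% of all genes tested called as higher and 1.51% as lower. Myh7, which encodes the slow myosin of the embryonic ventricle, rose by 1.11 on the log2 scale (SE 0.11, limma adjusted p = 6.85e-07). Acta1, skeletal actin, rose by 1.06 (SE 0.12, limma adjusted p = 3.87e-06). Cabin1, which binds and inhibits calcineurin, was at 28.2 and 31.0 CPM in RH/+ hearts, 39.5 and 38.7 CPM in RH/RQ vehicle and 38.4 and 33.9 CPM in treated hearts. Its log2 fold change between RH/+ and RH/RQ vehicle hearts was 0.39 (SE 0.11; limma adjusted p = 0.038). Cabin1 lost its call without any 1 of the 4 libraries compared (limma adjusted p = 0.0918 to 0.397), with RLE factors (adjusted p = 0.0555), with TMM factors (adjusted p = 0.0522) and with no filter on low genes (adjusted p = 0.184).

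In treated against vehicle RH/RQ hearts Nppa, the precursor of atrial natriuretic peptide, rose by 2.30 on the log2 scale (SE 0.16, with a limma adjusted p of 2.11e-09). It was the only 1 of the 54 that rose and 0 fell, beside 1.22% of all genes tested called as higher and 0.827% as lower. RH/+ hearts had 110 and 143 CPM of Nppa, against 112 and 117 CPM in RH/RQ vehicle. The treated libraries lay far apart, at 428 and 753 CPM. The log2 fold change was 2.71 without treated replicate 1 and 1.90 without treated replicate 2. Rcan1 and Nppa thus passed in opposite directions in this comparison. Myh7 and Acta1, which had risen with Rcan1 in RH/RQ vehicle hearts, had log2 fold changes of -0.13 and -0.26 here (limma adjusted p = 0.698 and 0.387). In treated RH/RQ against RH/+ hearts Nppa, Myh7 and Acta1 rose, by 2.17, 0.98 and 0.80, and 0 fell. Of all genes tested 2.33% were called as higher and 0.53% as lower there. Nppb, the precursor of B-type natriuretic peptide, was at 524 and 540 CPM in RH/+ hearts, 639 and 554 CPM in RH/RQ vehicle and 616 and 646 CPM in treated hearts and passed in none of the comparisons.

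By role, 0 of the 7 other subunit and calmodulin genes, 0 of the 4 tested calcium-calmodulin kinases, 0 of the 9 genes of NFAT5 and the NFAT export kinases, 0 of the 7 tested class IIa deacetylase and MEF2 genes and 0 of the 7 tested calcium entry genes passed in any of the 3 comparisons with limma on CPM scaled to the library total. Other limma settings called single further genes of the list, named here after their values were seen. Nfat5, a relative of the NFAT factors, was called as higher in RH/RQ vehicle than RH/+ hearts on CPM over nuclear genes (adjusted p = 0.0284), and Calm3, a calmodulin gene, as lower with only the 4 libraries of that comparison (adjusted p = 0.0333). In treated against vehicle RH/RQ hearts Cacna1h, a calcium channel gene, was called as lower with TMM factors (adjusted p = 0.0488), and Hdac5, a class IIa deacetylase gene, as higher without treated replicate 2 (adjusted p = 0.0442). In treated RH/RQ against RH/+ hearts Slc8a1, the sodium-calcium exchanger gene, which stands in the list of hypertrophy genes and reported NFAT targets, was called as lower with TMM factors (adjusted p = 0.0374). At an unadjusted limma p under 0.05, 9, 4 and 10 of the 54 genes passed in the order of comparisons above, beside the shares of 17.1%, 12.5% and 15.1% of all genes. With p-values adjusted over all genes, edgeR called 3, 2 and 3 of the 54 and DESeq2 4, 2 and 4. Over all 16804 genes edgeR called 918, 381 and 411, and DESeq2 948, 370 and 443. The median log2 fold change of the 54 genes was 0.07, 0.03 and 0.07. The 5 genes under the filter, Camk4, Camk1g, Camkv, Mef2b and Trpc6, were at or below 0.341 CPM in every library.

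**Figure D4:**
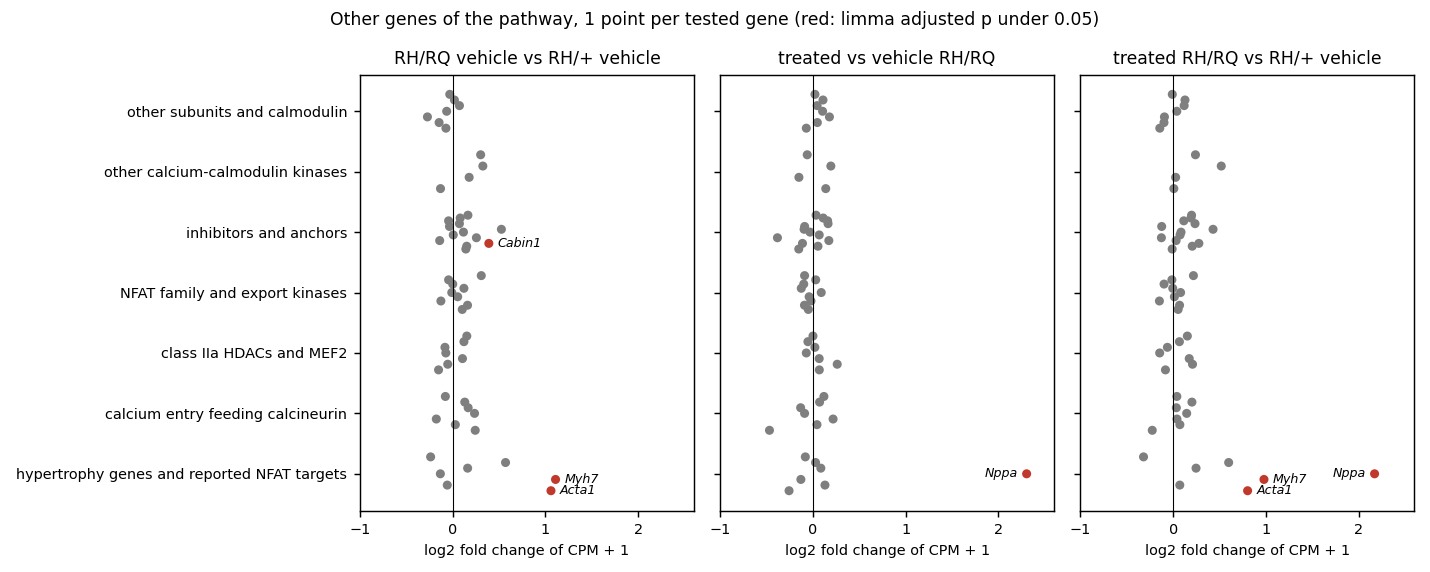
limma log2 fold change of CPM + 1 (horizontal axis) of the 54 other genes of the pathway, 1 point per gene, in rows by role and in 3 panels by comparison, with genes at an adjusted p under 0.05 in red and named. The named genes are Myh7, Acta1 and Cabin1 in the first panel, Nppa in the second, and Nppa, Myh7 and Acta1 in the third.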

How the data were processed

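Per the labels' protocols, poly(A) RNA from heart was made into libraries, and per the submitters' processing notes HISAT2, HTSeq, DESeq2 and the mouse build mm10 were used; versions and the strand setting are not given in the sources used here. The authors deposited CPM per gene in 3 tables of 4 libraries, and log2 fold changes with p-values from their own comparisons. The authors' deposited mean signal (size-factor scaled) and test score per gene were not used. CPM values were turned back into whole reads, and 100% of them came out whole within 0.001 reads.

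limma 3.58.1 (R 4.3.3, trend) was run on log2(CPM + 1), with all 6 libraries in 1 fit of 3 group means, on 16804 genes kept by the filterByExpr function of edgeR (minimum count 10). Fold changes on this scale understate those of low genes. P-values were adjusted by Benjamini-Hochberg over all genes tested, and calls are at an adjusted p under 0.05. edgeR 4.0.16 (quasi-likelihood, TMM) and DESeq2 1.42.0 on the recovered reads, other scalings, filters and pseudocounts, a replicate block and leaving out each library gave 17 alternatives. The fits were also run on simulated data drawn with the same dispersion for every gene, unlike real libraries. No result given here rests on that run. Replicates were compared by chi-square over genes and differed by more than counting noise (mean 12.4 to 23.7 a gene).

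The members and lists were chosen with earlier results of these data known. The rule for named genes covered all members, each called gene of the pathway list, the 3 genes closest in profile to each called member, Xist and Ddx3y. Genes named outside this rule include Nppb, Nfat5, Calm3, Cacna1h, Hdac5 and Slc8a1 of the pathway list, and single cell type markers such as Cd8a and Col1a1. Exon lengths and positions come from GENCODE M21 (GRCm38) and promoter windows from RefSeq (GRCm38.p6). The limit set by 3 reads covers counting error only.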

Additional observations from a re-analysis of the deposited data

How the results depend on the processing

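Of the 10 genes, the adjusted p of Rcan1 between RH/+ and RH/RQ vehicle hearts stayed under 0.05 in all 17 alternatives. With no filter on low genes the counts of calls, in the order RH/RQ vehicle against RH/+, then treated against vehicle RH/RQ, then treated against RH/+, went from 2, 1 and 1 to 1, 0 and 0 for the 10 genes, from 3, 1 and 3 to 0, 0 and 0 for the other pathway genes, and from 838, 344 and 480 to 57, 15 and 7 for all genes; the cause was not tested. In treated RH/RQ against RH/+ hearts 0 of the 10 genes were called with edgeR, DESeq2, RLE factors, TMM factors and CPM over nuclear genes. In treated against vehicle RH/RQ hearts these 5 settings called 2 pathway genes, the added one being Cacna1h, a T-type calcium channel gene named after its values were seen (log2 fold change -0.56 and adjusted p = 0.0325 with edgeR). With only the 4 libraries of the comparison, 5 pathway genes were called between RH/+ and RH/RQ vehicle hearts. Leaving out 1 library at a time gave 1 to 2, 0 to 1 and 0 to 1 calls among the 10 genes, 2 to 5, 1 to 2 and 3 to 4 among the pathway genes, and 343 to 1156, 134 to 613 and 172 to 703 over all genes.

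The split of all calls into higher and lower depended on the scaling. It was 585 and 253, 205 and 139, and 391 and 89 as reported, 527 and 404, 172 and 196, and 237 and 164 with TMM factors, and 826 and 250, 166 and 205, and 376 and 109 on CPM over nuclear genes. With a replicate block from the first digit of the sample names, 1173, 567 and 715 genes were called, and the 10 genes gave 2, 1 and 1 calls as without it. The differences between same-numbered libraries correlated across genes with r = 0.13, -0.0205 and 0.0742 between pairs of groups, so the numbers were not taken to pair the samples.

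Of the values of the 10 genes under the alternatives, 462 kept their direction and call, 15 lost a call and 33 turned direction, all 33 uncalled. With edgeR, DESeq2, RLE and TMM factors the log2 fold change was -0.019, -0.022, -0.022 and -0.019 for Ppp3cb between RH/+ and RH/RQ vehicle hearts, and -0.058, -0.057, -0.054 and -0.055 for Nfatc2 in treated against vehicle RH/RQ hearts (-0.060 on CPM over nuclear genes). In treated RH/RQ against RH/+ hearts the same 4 settings gave -0.0011, -0.0035, -0.0025 and -6.6e-05 for Ppp3ca, -0.093, -0.096, -0.094 and -0.092 for Nfatc1 (-0.019 on CPM over nuclear genes), and -0.077, -0.080, -0.065 and -0.063 for Nfatc4. Leaving out 1 library at a time gave ranges across 0 of -0.0040 to 0.20, -0.21 to 0.032 and -0.11 to 0.13 for Nfatc1 in the 3 comparisons, -0.063 to 0.064 for Nfatc2, -0.091 to 0.027 for Nfatc3 and -0.23 to 0.048 for Ppp3ca in treated against vehicle RH/RQ hearts, and -0.021 to 0.23 for Ppp3ca and -0.10 to 0.17 for Nfatc4 in treated RH/RQ against RH/+ hearts. The cause was not tested. Depth limits low genes most, where 3 reads equal up to 0.0827 CPM.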
